A study of Mus musculus with 18 samples.

Results

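The glucocorticoid-responsive genes described here are 10 genes of the 36737 counted in mouse lumbar dorsal root ganglia (DRG), taken by their symbols. They are *Nr3c1*, which encodes the glucocorticoid receptor, and 9 genes known to respond to it, namely *Zbtb16*, *Fkbp5*, *Tsc22d3*, *Sgk1*, *Pdk4*, *Errfi1*, *Mt1*, *Mt2* and *Cdkn1a*. The list was chosen by the values of *Zbtb16*, which was lower with PDX than with vehicle in some fits of these same libraries, so those values are given as a description with no test, and the question asked was whether other glucocorticoid targets moved with it. All 10 passed the filter on low counts in every comparison.

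The DRG hold the cell bodies of sensory neurons, with satellite glia, Schwann cells, fibroblasts, vessels and macrophages around them. L3–L5 ganglia of CD1 mice, an outbred strain, were taken from 6 mice after sham surgery, from 6 mice after tibial fracture given vehicle, and from 6 mice after tibial fracture given PDX, each group with 3 males and 3 females and 1 bulk library per mouse. PDX (protectin DX) is a lipid mediator made from docosahexaenoic acid. The fracture was an osteotomy of the tibia with a pin in the medullary canal under isoflurane, the 2 fracture groups were sampled on day 3, and the study describes adult animals. The sampling day of the sham mice, and the dose and route of PDX in these mice, are not given in the sources used here. No hormone was given or measured in these mice as far as the labels say, and the hour of day at which ganglia were taken is not in them.

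Corticosterone, the main glucocorticoid of mice, enters cells and binds the glucocorticoid receptor, which is held in the cytoplasm by heat shock proteins and immunophilins. The bound receptor moves to the nucleus and attaches to glucocorticoid response elements (GREs), palindromes with a short spacer, from which it raises genes such as *Fkbp5* and *Tsc22d3*. It also lowers inflammatory genes, largely by acting on NF-kB and AP-1. Secretion follows a daily rhythm and rises with stress, and several clock genes are themselves glucocorticoid targets.

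The sequences below are shown because they hold the GRE letters found near the start sites of the members. RefSeq promoter windows (GRCm38.p6) were found for 8 of the 10 members, and not for *Zbtb16* and *Nr3c1*. The 250 bases before each start were searched on both strands for the full palindrome, which is AGAACA and TGTTCT with any 3 bases between them, and for its core, GNACA and TGTNC with any 3 bases between them, which every full palindrome contains. The full palindrome occurred in 3 of 32851 windows of the genome (0.00913%), and 1 of these lies 189 bases before one of the 6 listed starts of *Sgk1*. The core occurred in 127 windows (0.387%), among them that of *Sgk1* and the single window of *Mt1*, where it begins 94 bases before the start. The *Sgk1* stretch, chr10:21993640-21993889 on the plus strand, lies in introns of the longer *Sgk1* transcripts, and the *Mt1* stretch, chr8:94178839-94179081 on the plus strand, stops before the first annotated exon base. Capitals mark the full palindrome in *Sgk1* and the core in *Mt1*.
Sgk1: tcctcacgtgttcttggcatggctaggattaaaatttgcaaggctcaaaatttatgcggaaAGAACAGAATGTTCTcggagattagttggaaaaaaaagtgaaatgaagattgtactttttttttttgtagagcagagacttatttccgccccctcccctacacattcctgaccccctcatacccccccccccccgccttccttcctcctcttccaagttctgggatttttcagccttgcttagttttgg
Mt1: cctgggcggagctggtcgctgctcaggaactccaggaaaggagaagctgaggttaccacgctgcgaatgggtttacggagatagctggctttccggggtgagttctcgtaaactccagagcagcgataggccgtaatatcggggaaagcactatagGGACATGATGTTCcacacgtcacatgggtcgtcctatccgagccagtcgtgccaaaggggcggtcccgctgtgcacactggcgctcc
These letters are a description of sequence and not of binding, and the lack of a match in the windows of *Fkbp5*, *Tsc22d3*, *Pdk4*, *Errfi1*, *Mt2* and *Cdkn1a* concerns these 250 bases only.

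The libraries held between 63235040 and 82824942 counts on genes. CPM values, read counts divided by library size, were scaled with the TMM method, and FPKM values, which are also scaled by transcript length, were used to compare levels between genes. Neuronal markers were high in every library (summed CPM of 8 markers from 8025 to 9457), as the labelled tissue has. Marker sets of other tissues differed between libraries, namely fast muscle genes (8 markers, summed CPM from 14.7 to 1381), adipocyte genes (6 markers, 9.22 to 87.8, highest in PDX female 3 and next in sham female 3 at 79.2) and placental genes (6 markers, 180 to 569 in sham, 30.6 to 270 in fracture and 28.6 to 142 in fracture plus PDX). In bulk tissue, fewer cells of a type and less RNA per cell cannot be told apart. The libraries of sham females 2 and 3 stood apart in the genes described here, and the values against sham are also given without them where they moved by over 1.5 times, other than those of *Cdkn1a*, which were near 0.

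On the FPKM scale, the members ranked from *Tsc22d3* (36.4 ± 8.74, SD over 18 libraries) and *Mt2* (35.4 ± 15.2) through *Mt1* (24.7 ± 7.37) and *Cdkn1a* (23.2 ± 1.74) to *Errfi1* (11.9 ± 2.13) and *Sgk1* (11.6 ± 3.35). *Nr3c1* (6.16 ± 0.532), *Fkbp5* (5.64 ± 1.01), *Pdk4* (3.92 ± 1.63) and *Zbtb16* (1.27 ± 0.65) were lower. Neighbours in this order, such as *Tsc22d3* and *Mt2*, *Mt1* and *Cdkn1a*, *Errfi1* and *Sgk1*, or *Nr3c1* and *Fkbp5*, differed by less than their spread. *Zbtb16* was the least abundant but was still counted 268 to 1450 times per library.

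**Figure D1:**
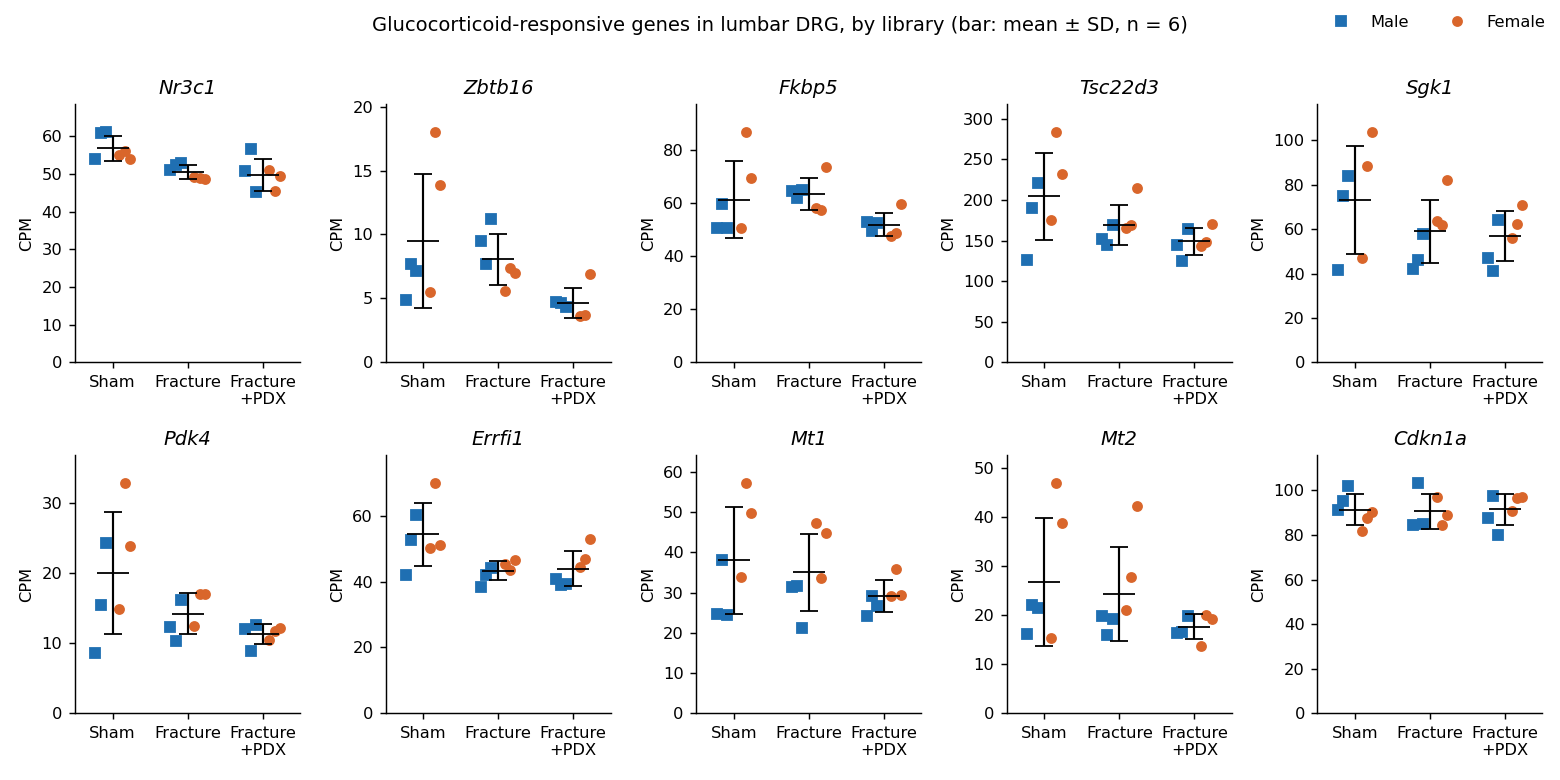
CPM (vertical axes, from 0) of each of the 10 members in the 18 libraries, by group, with males as blue squares and females as orange circles, and the mean ± SD of 6 mice in black. Sham values of the members other than *Nr3c1* and *Cdkn1a* are widely spread, with sham females 2 and 3 above the other sham mice for *Zbtb16*, *Fkbp5*, *Mt1*, *Mt2*, *Sgk1* and *Tsc22d3*, while *Nr3c1* and *Cdkn1a* vary little.

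The receptor gene was the 1 member called after fracture, where 2.92% of all genes were called. *Nr3c1* (ENSMUSG00000024431, chromosome 18) had 53.9 CPM in the lowest, 55.5 in the median and 61.1 in the highest sham mouse. In fracture mice it had 48.6, 50.03 and 52.8 CPM, so that all 6 lay below every sham mouse. With fracture plus PDX it had 45.4, 50.1 and 56.7 CPM, and 5 of the 6 lay below every sham mouse. The log2 fold change was -0.17 with fracture (SE 0.035, adjusted p = 0.0225), a fall of 11.2%, and -0.18 with fracture plus PDX (SE 0.053, adjusted p = 0.0691). Between the fracture groups it was -0.01 (SE 0.048). The call with fracture is close to its threshold. Its adjusted p was 0.0691 without sham females 2 and 3, and between 0.0517 and 0.0588 when fracture female 2, sham female 2, sham male 2 or sham male 3 was left out, with log2 fold changes between -0.17 and -0.16 in these fits.

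Markers of several cell types moved with this fall. The summed CPM of 8 neuronal markers was 8025 to 8597 in sham and 9003 to 9209 in fracture mice, with no overlap. That of 6 fibroblast markers was 1754 to 2316 and 1639 to 1882, that of 6 endothelial markers 110 to 153 and 93.1 to 116, and that of 8 macrophage markers 92.3 to 112 and 70.8 to 92.5. Within groups and sexes, *Nr3c1* also went down where the neuronal sum went up (r = -0.72 over 18 libraries that share their scaling) and up with the fibroblast sum (r = 0.62). Their part in the fall of *Nr3c1* was not tested.

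Among the genes that act on the receptor or its hormone, the lowest values were those of *Hsd11b2*, which encodes the enzyme that inactivates corticosterone. It had a median of 1.97 CPM in sham (1.08 to 2.82), 0.928 with fracture (0.513 to 1.34) and 0.565 with fracture plus PDX (0.190 to 1.30). It changed by a log2 fold of -1.15 with fracture (SE 0.25, adjusted p = 0.0288) and -1.63 with fracture plus PDX (SE 0.34, adjusted p = 0.0168). *Hsd11b2* is at about 1 CPM and is also strongly expressed in placenta, whose markers fell in the same libraries, and the part of that tissue's RNA was not tested. Of the 16 genes of this list, which holds the mineralocorticoid receptor, the *Hsd11b* enzymes, chaperones, coregulators and steroid exporters, 1 was called with fracture (*Hsd11b2*), against 2.92% of all genes. The list's median log2 fold change was -0.02 with fracture and -0.03 with fracture plus PDX. None of the 16 was called between the fracture groups (0% of all genes), where *Hsd11b1*, which regenerates corticosterone, had the highest value (0.09, SE 0.21) and *Hsd11b2* the lowest (-0.49, SE 0.39). Between the sexes, with 0 called (0.297% of all genes), the values ran from -0.30 (SE 0.17) for the steroid exporter gene *Abcb1b* to 0.23 (SE 0.28) for *Hsd11b2*.

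*Zbtb16* (ENSMUSG00000066687, chromosome 9, 48654297 to 48836222) encodes the zinc finger repressor PLZF and is among the most strongly glucocorticoid-induced genes in many cell types. Fracture plus PDX mice had 3.61 CPM in the lowest, 4.49 in the median and 6.89 in the highest library. Fracture mice had 5.62, 7.53 and 11.2 CPM, and sham mice 4.91, 7.40 and 18.005 CPM. Hence 5 of 6 PDX libraries lay below every fracture library and also below every sham library, and PDX female 3, the highest, lay among them. The log2 difference was -0.76 between PDX and fracture (a level 41.1% lower), -0.96 between PDX and sham and -0.19 between fracture and sham. These are the values that led to the list, and the 2 comparisons with PDX share its libraries. In males, the 3 PDX mice (4.33 to 4.72 CPM), the 3 sham mice (4.91 to 7.66) and the 3 fracture mice (7.70 to 11.2) did not overlap in that order. In females the order was another, with sham at 5.49, 13.8 and 18.005 CPM, fracture between 5.62 and 7.36, and PDX at 3.61, 3.74 and 6.89. Without sham females 2 and 3, the difference of fracture from sham was 0.44 in place of -0.19, and that of PDX from sham -0.41 in place of -0.96.

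*Fkbp5* (ENSMUSG00000024222, chromosome 17, 28399094 to 28517527) encodes the immunophilin FKBP51, which lowers the affinity of the receptor for its hormone in a feedback loop. Over all 18 libraries it had the highest r of the members with *Zbtb16* from mouse to mouse (0.85), while without sham females 2 and 3 *Errfi1* (0.66) lay above it (0.65). PDX mice had 47.7, 51.2 and 59.6 CPM (lowest, median, highest), fracture mice 57.5, 63.4 and 73.7 CPM, and sham mice 50.6, 55.3 and 86.9 CPM. As with *Zbtb16*, 5 of the 6 PDX libraries lay below every fracture library, and PDX female 3 was the sixth. The log2 difference between PDX and fracture was -0.28 (SE 0.067), a level 17.9% lower, and it lay between -0.33 and -0.23 in all alternative fits. It was not called by edgeR's quasi-likelihood test (adjusted p = 0.811 over 20562 genes). Against sham, *Fkbp5* differed by 0.06 with fracture (SE 0.13) and -0.22 with PDX (SE 0.13), and neither was called. These values were 0.27 and -0.01 without sham females 2 and 3, and without sham female 2 alone the second was -0.12. In males, the fracture mice (62.0 to 64.99 CPM) were above both the sham (50.7 to 59.8) and the PDX mice (49.6 to 53.2).

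In the comparison of PDX with fracture, 0 of 20562 genes were called (0% of all genes at an adjusted p under 0.05), and the adjusted p of the 9 members other than *Zbtb16* lay between 0.811 and 0.997 in edgeR's quasi-likelihood test. At an unadjusted p under 0.05, 5.41% of all genes passed, and 2 of the 9 did, *Fkbp5* and *Pdk4*. Differences were below 0 for 7 of the 9, with a median of -0.17, where the median of all genes was 0.00. They were -0.32 for *Pdk4* (SE 0.13), -0.41 for *Mt2* (SE 0.20), -0.24 for *Mt1* (SE 0.13), -0.17 for *Tsc22d3* (SE 0.088) and within 0.05 of 0 for *Sgk1*, *Nr3c1*, *Errfi1* and *Cdkn1a*. No member had groups without overlap, against 0.267% of all genes. DESeq2 called 0 of these 9 members (0.0486% of all genes). Without fracture female 3, the value of *Mt2* was -0.23 and that of *Tsc22d3* -0.11.

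In the same comparison, 0 markers of other cell types were called, but several sets lay to one side of 0. Neutrophil markers were above 0 in 8 of 8 genes, with a median log2 difference of 1.13 and 7 of them at an unadjusted p under 0.05. Their summed CPM was 79.9 to 173 in fracture and 71.4 to 431 in fracture plus PDX mice, and within groups and sexes it had an r of -0.51 with *Zbtb16* and -0.39 with *Fkbp5*. Muscle markers were below 0 in 8 of 8 genes, with a median of -1.91 and none at an unadjusted p under 0.05, and their sum had an r of 0.45 with *Zbtb16* and 0.27 with *Fkbp5*. Macrophage markers were above 0 in 7 of 8 genes (median 0.17, 2 at an unadjusted p under 0.05) and erythroid markers in 7 of 7 (median 0.28), and placental markers were below 0 in 6 of 6 (median -0.56). The part of these cells in the values of the members was not tested.

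**Figure D2:**
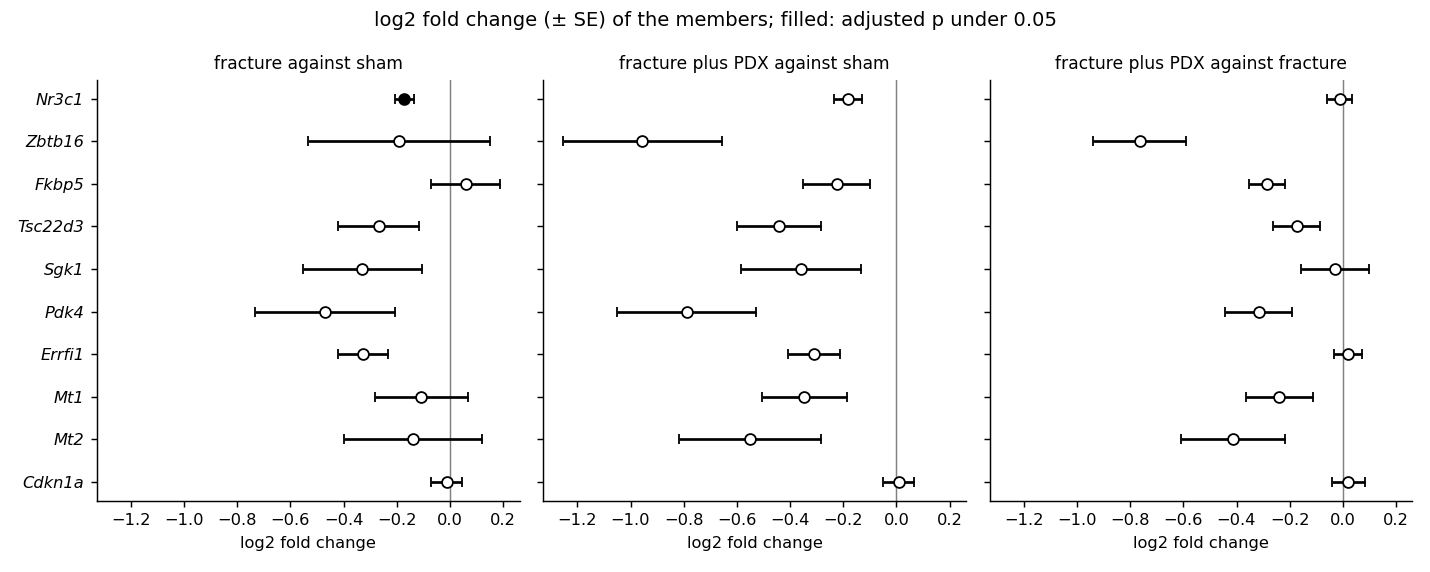
The log2 fold change ± SE (horizontal axes) of the 10 members in the 3 comparisons of groups, from edgeR fits with sex as a covariate; a filled point has an adjusted p under 0.05. Only *Nr3c1* with fracture is filled, the PDX against fracture values of *Zbtb16*, *Fkbp5*, *Pdk4*, *Mt2*, *Mt1* and *Tsc22d3* lie below 0 by more than their SE, and the values of *Zbtb16* are a description, since they led to the list.

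*Tsc22d3* (ENSMUSG00000031431, chromosome X, 140539528 to 140600659) encodes GILZ, a leucine zipper protein that binds NF-kB and AP-1. It had 126, 205 and 284 CPM in sham, 145, 167 and 215 CPM with fracture, and 125, 146 and 170 CPM with fracture plus PDX. The groups overlapped, and the medians fell in the same order as those of *Pdk4*. The log2 fold change against sham was -0.27 with fracture (SE 0.15, adjusted p = 0.397) and -0.44 with fracture plus PDX (SE 0.16, adjusted p = 0.169), and without sham females 2 and 3 these were -0.12 and -0.26. Without sham male 1, the second was -0.54 and was called in edgeR (adjusted p = 0.0392), where 1008 of 20818 genes were.

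*Sgk1* (ENSMUSG00000019970, chromosome 10, 21882184 to 21999893) encodes a kinase that keeps ion channels and transporters at the cell surface, and it carries the full GRE shown above. It had 41.6, 79.5 and 104 CPM in sham, 42.3, 59.8 and 82.3 CPM with fracture, and 41.3, 59.3 and 71.0 CPM with fracture plus PDX. The lowest mouse of each group had between 41.3 and 42.3 CPM, and the groups differed in their highest mice. The log2 fold changes were -0.33 (SE 0.22) and -0.36 (SE 0.23) against sham, neither called, and -0.14 and -0.13 without sham females 2 and 3.

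*Pdk4* (ENSMUSG00000019577, chromosome 6, 5483351 to 5496309) encodes the kinase that inactivates pyruvate dehydrogenase and so spares glucose. It had 8.67, 19.7 and 32.9 CPM in sham, 10.4, 14.3 and 17.1 CPM with fracture, and 8.92, 11.95 and 12.6 CPM with fracture plus PDX. The highest PDX mouse lay below 5 of the 6 sham mice, while sham male 1 had the lowest value of all. The log2 fold change was -0.79 with fracture plus PDX against sham (SE 0.26, adjusted p = 0.137) and -0.47 with fracture (SE 0.26, adjusted p = 0.385), and these were -0.47 and -0.19 without sham females 2 and 3. The value with fracture was -0.31 without sham male 3. Without sham male 1, the value with fracture plus PDX was -0.95 and was called in edgeR (adjusted p = 0.0286), where 1008 of 20818 genes were. *Pdk4* also responds to fasting through fatty acids, so 10 other genes of fatty acid use were read beside it. None was called in any comparison. The share of all genes was 2.92% with fracture, 4.5% with fracture plus PDX against sham, 0% between them and 0.297% between the sexes. The median log2 fold change of the 10 was 0.01 with fracture and -0.05 with fracture plus PDX against sham. The highest and lowest of them were *Cpt1b* (0.21, SE 0.58) and *Ucp3* (-0.43, SE 0.19) with fracture, and *Plin2* (0.10, SE 0.073) and *Cpt1b* (-0.87, SE 0.65) with fracture plus PDX. The part of fasting in the values of *Pdk4* was not tested.

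*Errfi1* (ENSMUSG00000028967, chromosome 4, 150853919 to 150868892) encodes MIG6, a feedback inhibitor of the EGF receptor. It had 42.1, 52.0 and 69.9 CPM in sham, 38.2, 43.8 and 46.6 CPM with fracture, and 38.9, 42.6 and 52.8 CPM with fracture plus PDX. Sham male 1 was the 1 sham mouse inside the range of the fracture mice. *Errfi1* had a log2 fold change of -0.33 with fracture (SE 0.094, adjusted p = 0.0814) and -0.31 with fracture plus PDX (SE 0.097, adjusted p = 0.104). It was called with DESeq2 in both comparisons (adjusted p = 0.0105 and 0.0230), and with all 18 libraries in 1 edgeR fit (0.0366 and 0.0418), where 3.81% and 5.09% of all genes were called. Without sham male 1, its value with fracture was -0.39 and was called in edgeR (adjusted p = 0.0332), where 710 of 20943 genes were.

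The metallothionein genes *Mt1* (ENSMUSG00000031765, chromosome 8, 94179082 to 94180327) and *Mt2* (ENSMUSG00000031762, chromosome 8, 94172664 to 94173568) lie next to each other, with 5514 bases from the end of *Mt2* to the start of *Mt1*. Their products bind zinc and copper, and both genes respond to metals, through the factor MTF1, and to glucocorticoids. *Mt1* had 24.5, 35.9 and 57.2 CPM in sham, 21.1, 32.7 and 47.2 CPM with fracture, and 24.1, 29.2 and 35.9 CPM with fracture plus PDX. *Mt2* had 15.5, 21.8 and 47.0 CPM in sham, 15.9, 20.5 and 42.2 CPM with fracture, and 13.7, 18.02 and 20.1 CPM with fracture plus PDX. For both genes the groups overlapped at the lower end, and the highest value shrank from sham to fracture to PDX. None of the 6 log2 fold changes was called, the largest in size being that of *Mt2* with PDX against sham (-0.55, SE 0.27, adjusted p = 0.317), which was -0.05 without sham females 2 and 3. Without them the values with fracture, -0.11 for *Mt1* and -0.14 for *Mt2*, were 0.07 and 0.21, and that of *Mt1* with PDX against sham was -0.11 in place of -0.35. Of 6 other genes of metal handling, 5 were tested, and the zinc exporter gene *Slc30a1* was lower with fracture (log2 fold change -0.25, SE 0.053, adjusted p = 0.0270), 1 call of 5 against 2.92% of all genes. With fracture plus PDX against sham, with 0 called (4.5% of all genes), the values ran from -0.36 (SE 0.21) for *Slc30a10* to 0.06 (SE 0.13) for *Mt3*.

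*Cdkn1a* (ENSMUSG00000023067, chromosome 17, 29090976 to 29100727) encodes p21, an inhibitor of cyclin-dependent kinases that both p53 and the glucocorticoid receptor can induce. It had 81.9, 90.8 and 102 CPM in sham, 84.4, 87.0 and 103 CPM with fracture, and 80.1, 93.5 and 97.5 CPM with fracture plus PDX. Over the 18 libraries it had the lowest coefficient of variation of the members (7.39%, and 8.56% for *Nr3c1*), although *Nr3c1* varied less within sham and within fracture. Its log2 fold changes between groups lay between -0.01 and 0.02 with SE of 0.058 to 0.061. Of 10 other p53 targets, 0 were called with fracture (2.92% of all genes) and 1 with fracture plus PDX against sham (4.5% of all genes), *Trp53inp1* (log2 fold change -0.31, SE 0.072, adjusted p = 0.0282).

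Over the 9 members other than *Zbtb16*, fracture against sham had 1 called (*Nr3c1*), where 2.92% of all genes were called, and 2 at an unadjusted p under 0.05, where 18.5% of all genes were. Their median log2 fold change was -0.17, against 0.00 over all genes, and 8 of the 9 values were below 0. In 1 of the 9 the groups did not overlap, against 2.57% of all genes. With fracture plus PDX against sham, 0 of the 9 were called (4.5% of all genes), with adjusted p from 0.0691 to 0.969 in edgeR. At an unadjusted p under 0.05, 4 of the 9 passed, all lower, against 18% of all genes, and they were *Nr3c1*, *Errfi1*, *Pdk4* and *Tsc22d3*. The median of the 9 was -0.35, and no member's groups were without overlap (2.86% of all genes). The 2 comparisons share the sham libraries. Apart from *Zbtb16*, DESeq2 called 2 members in each, *Nr3c1* and *Errfi1*, where it called 7.29% and 7.91% of all genes. Without sham females 2 and 3, 0 members were called in either (1.65% and 2.39% of all genes), 6 of the 9 were below 0 with fracture (median -0.12) and 9 of 9 with fracture plus PDX (median -0.13).

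Single mice were high or low in several members at once. Sham female 2 was among the 2 highest of the 18 libraries for 8 of the 10 members, sham females 2 and 3 being the highest 2 for *Zbtb16* (18.005 and 13.8 CPM), *Mt1* (57.2 and 49.8), *Sgk1* (88.3 and 104) and *Tsc22d3* (284 and 232). Sham male 1 was among the lowest 4 libraries for 5 members (*Tsc22d3*, *Sgk1*, *Mt1*, *Mt2* and *Pdk4*), with 126 CPM of *Tsc22d3* and 8.67 of *Pdk4*. Fracture female 3 was among the highest 4 for 6 members, with 42.2 CPM of *Mt2*, 73.7 of *Fkbp5* and 215 of *Tsc22d3*. No PDX library was among the highest 2 for any member.

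**Figure D3:**
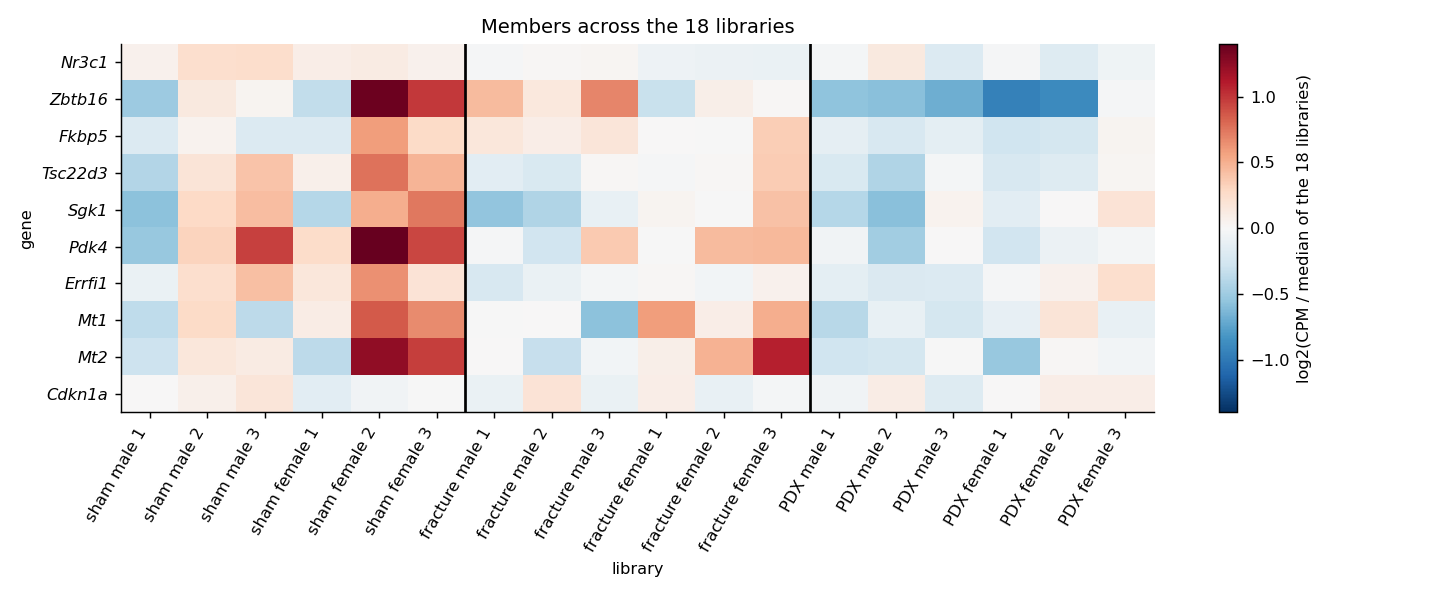
Colour gives log2 of CPM over the gene's median of the 18 libraries (red above, blue below) for the 10 members (rows) in each library (columns), with black lines between sham, fracture and fracture plus PDX. In the rows of the 8 members other than *Nr3c1* and *Cdkn1a*, sham females 2 and 3 are red and sham male 1 is blue, and *Zbtb16* lies below its median in all 6 PDX libraries.

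The coefficient of variation of CPM in sham was 55.1% for *Zbtb16*, 48.4% for *Mt2*, 43.2% for *Pdk4*, 35.0% for *Mt1* and 33.2% for *Sgk1*, but 7.38% for *Cdkn1a* and 5.95% for *Nr3c1*. In fracture plus PDX mice it was 25.5% for *Zbtb16*, 14.4% for *Mt2*, 12.4% for *Pdk4*, 13.5% for *Mt1* and 19.5% for *Sgk1*, and 7.50% for *Cdkn1a* and 8.42% for *Nr3c1*. The difference in spread between groups was not tested.

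Once the mean of each group and sex was taken away, 8 members, all but *Nr3c1* and *Cdkn1a*, varied together, with a median Pearson r of 0.71 over their 28 pairs (0.10 to 0.93, n = 18 libraries). The set of 8 was not planned, so its r is a description. *Cdkn1a*, which the receptor can also induce, is outside it. The closest pairs were *Tsc22d3* with *Pdk4* (r = 0.93) and with *Sgk1* (r = 0.90), *Fkbp5* with *Mt2* (r = 0.87) and *Zbtb16* with *Fkbp5* (r = 0.85). Without sham females 2 and 3 the median was 0.57 (-0.28 to 0.96), with *Tsc22d3* and *Sgk1* at 0.96, and in the 12 fracture and PDX libraries alone it was 0.56 (-0.67 to 0.93). *Mt1* left the others, with r from -0.28 to 0.25 without those 2 females, including 0.14 with its neighbour *Mt2*. The 17 pairs with *Nr3c1* or *Cdkn1a* had a median r of 0.11. Over all pairs of genes with a mean over 1 CPM (on the log2 scale), the mean r was 0.003. All the points share library preparation and scaling, and no p is given.

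**Figure D4:**
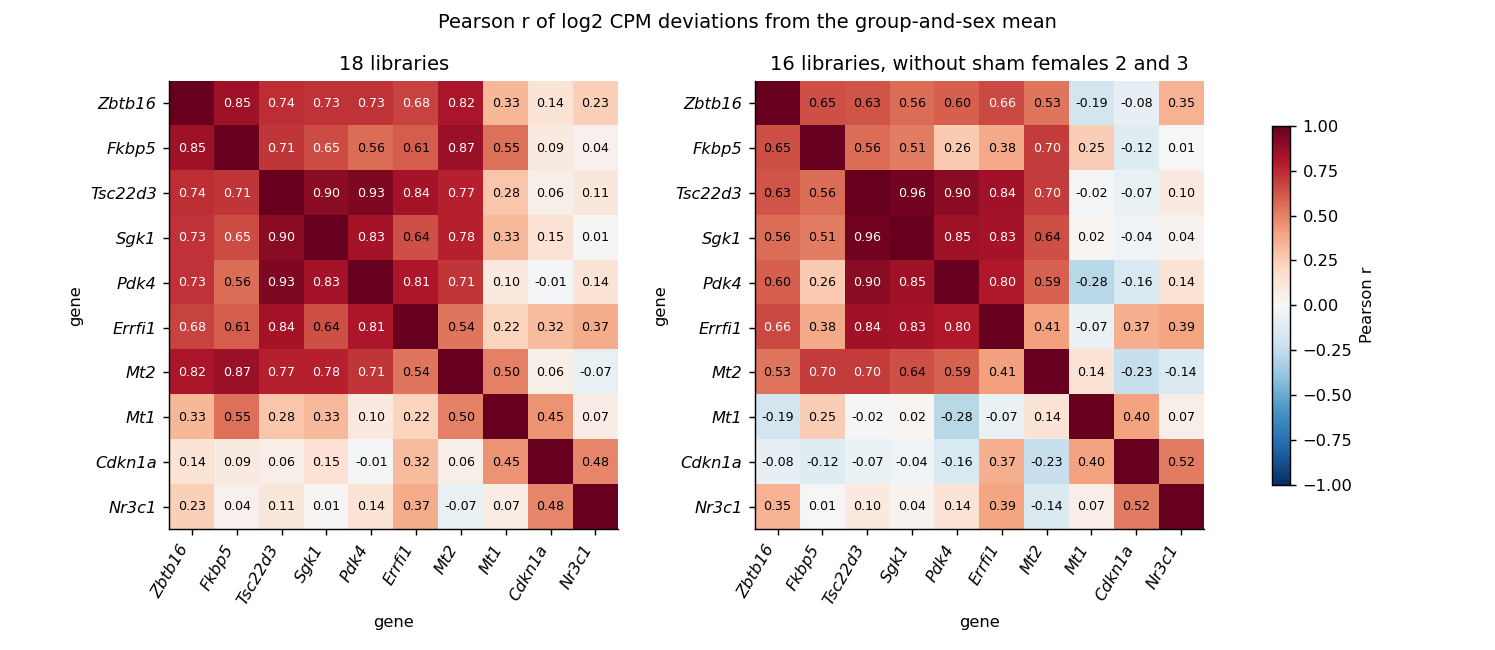
Pearson r between members of log2 CPM deviations from the mean of the group and sex, over 18 libraries (left) and over 16 libraries without sham females 2 and 3 (right); red is positive and blue negative. *Zbtb16*, *Fkbp5*, *Tsc22d3*, *Sgk1*, *Pdk4*, *Errfi1* and *Mt2* form a red block in both panels, with 0.26 the lowest value of the block at right, and *Mt1*, *Cdkn1a* and *Nr3c1* lie outside it at right.

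The genes most like *Zbtb16* in these deviations, among 15792 with a mean of at least 1 CPM, were *Plin4* (r = 0.91), a lipid droplet gene and glucocorticoid target, *Tef* (r = 0.90) and *Per2* (r = 0.90), both of the circadian clock, E130102H24Rik (r = 0.90) and *Pigg* (r = 0.89). *Fkbp5* ranked 11 and *Mt2* 40 in that order, while *Tsc22d3*, *Pdk4* and *Sgk1* ranked 165 to 217. The genes most like *Fkbp5* were *Arrdc2* (r = 0.93), also a known glucocorticoid target, *Msln* (r = 0.92), *Tns2* (r = 0.91), *Mbd1* (r = 0.88) and *Adamtsl4* (r = 0.88), with *Mt2* at rank 14 and *Zbtb16* at 24. *Plin4* had a median of 4.41 CPM in sham (2.26 to 14.4), 7.11 with fracture (4.34 to 9.90) and 3.08 with fracture plus PDX (1.71 to 9.73). Its log2 difference between PDX and fracture was -0.93 (SE 0.36, adjusted p = 0.887), the lowest of the 30 further targets. In the same groups the muscle sum had medians of 62.1 CPM with PDX and 397 with fracture, and the adipocyte sum 14.9 and 29.1. The part of these tissues in the values of *Plin4* was not tested. *Arrdc2* had 13.8, 13.6 and 12.9 CPM as medians and 36.8 CPM in its highest sham mouse.

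Of 30 further glucocorticoid targets, 3 were called with fracture against sham, all lower (2.92% of all genes), and 12 had an unadjusted p under 0.05, also all lower (18.5% of all genes). With fracture plus PDX against sham, 4 were called (4.5% of all genes) and 14 had an unadjusted p under 0.05 (18% of all genes), all lower. The list's median log2 fold change was -0.20 and -0.26, and 25 and 29 of the 30 were below 0. The medians were -0.12 and -0.13 without sham females 2 and 3, where 20 and 25 were below 0, 3 and 4 were called, and 9 and 5 had an unadjusted p under 0.05. With fracture plus PDX against sham, fibroblast, endothelial and Schwann cell markers were each below 0 in 6 of 6 genes (medians -0.25, -0.21 and -0.20). Neuronal markers were above 0 in 8 of 8 (median 0.13). The part of these cells in the values of the 30 targets was not tested. Between PDX and fracture, 0 of the 30 targets were called (0% of all genes), 7 had an unadjusted p under 0.05 (5 lower and 2 higher, against 5.41% of all genes) and their median was -0.03.

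The called genes were *Tgm2*, *Zfp36* and *Cdkn1c* in both and *Il1r2* with PDX. *Tgm2* encodes a transglutaminase that cross-links proteins. It had 41.4 to 53.7 CPM in sham, 25.6 to 35.3 with fracture and 23.9 to 33.7 with fracture plus PDX, so that both fracture groups lay wholly below sham. Its log2 fold changes were -0.63 (SE 0.082, adjusted p = 0.00579) and -0.68 (SE 0.081, adjusted p = 0.00134). *Zfp36*, which encodes tristetraprolin, a protein that degrades cytokine mRNAs, had 11.7 to 16.2 CPM in sham, 7.79 to 9.90 with fracture and 8.87 to 12.2 with fracture plus PDX. Its log2 fold changes were -0.66 (SE 0.092, adjusted p = 0.00607) and -0.46 (SE 0.10, adjusted p = 0.0200).

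*Cdkn1c*, which encodes the cell cycle inhibitor p57, had a median of 35.1 CPM in sham, 13.0 with fracture and 13.1 with fracture plus PDX. Its log2 fold changes were -1.13 (SE 0.24, adjusted p = 0.0353) and -1.25 (SE 0.15, adjusted p = 0.00216), and the first was not called without sham females 2 and 3. *Cdkn1c* is also high in placenta, whose markers were lower in the same groups. *Il1r2*, the gene of a decoy receptor of interleukin 1, was close to 1 CPM (median 1.85 in sham, 0.785 with fracture and 0.776 with fracture plus PDX), with a log2 fold change of -1.03 with fracture plus PDX (SE 0.24, adjusted p = 0.0274). Between PDX and fracture the highest value was that of *Zfp36* (0.20, SE 0.089) and the lowest that of *Plin4*.

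**Figure D5:**
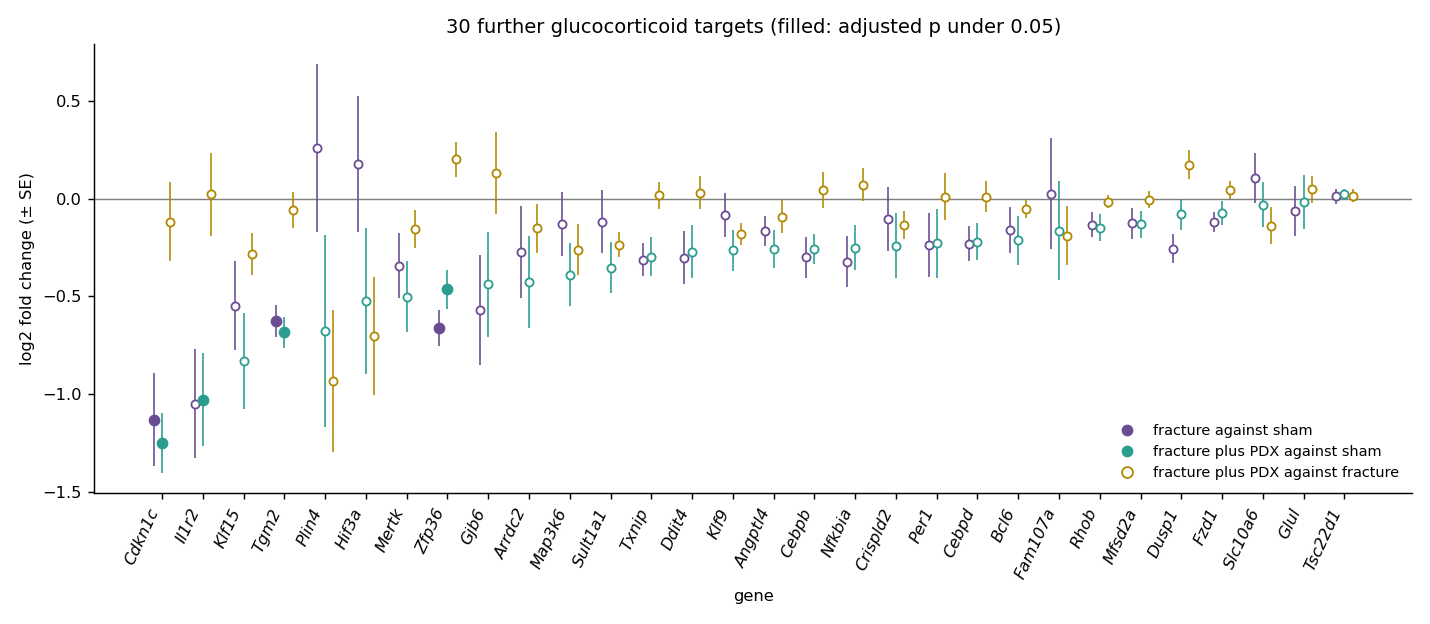
The log2 fold change ± SE (vertical axis) of 30 further glucocorticoid targets (horizontal axis, ordered by fracture plus PDX against sham), for fracture against sham in purple, fracture plus PDX against sham in green and PDX against fracture in yellow, with filled points for an adjusted p under 0.05. Purple and green points lie mostly below 0, 3 and 4 of them are filled, and the yellow points are open and lie on both sides of 0.

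Within groups and sexes, 10 of the 30 had an r of at least 0.8 with *Tsc22d3*, where 82 of all 15791 genes did (0.519%), and this threshold was chosen after the values were seen. The highest were *Per1* (r = 0.94), *Klf9* (r = 0.93), *Klf15* (r = 0.93), *Rhob* (r = 0.93) and *Ddit4* (r = 0.92), which encode a clock repressor, 2 Krüppel-like factors, a small GTPase and an inhibitor of mTOR signaling. Without sham females 2 and 3, these 5 had r from 0.90 to 0.97. For *Tgm2*, *Zfp36*, *Cdkn1c* and *Il1r2* the r was 0.47, 0.59, 0.12 and 0.02. None of these 5 was called in a comparison. *Klf15* came closest, with medians of 23.3, 15.95 and 13.3 CPM in sham, fracture and fracture plus PDX and a log2 fold change of -0.83 with PDX against sham (SE 0.24, adjusted p = 0.0934).

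Of 12 inflammatory genes that glucocorticoids lower, 11 were tested. With fracture against sham, 2 were lower (2.92% of all genes were called), *Nos2* (log2 fold change -1.47, SE 0.31, adjusted p = 0.0258), which makes nitric oxide, and the adhesion molecule gene *Icam1* (-0.42, SE 0.10, adjusted p = 0.0406). *Nos2* was also the 1 gene called with PDX against sham, where 4.5% of all genes were (-2.52, SE 0.61, adjusted p = 0.0418), at medians of 1.78, 0.614 and 0.438 CPM in the 3 groups. Between PDX and fracture, with 0 called (0% of all genes), the values ran from -1.08 (SE 0.66) for *Nos2* to 0.90 (SE 0.41) for *Mmp9*, and the list's median was 0.00.

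Of 14 clock genes, 2 were called with fracture against sham, both lower (2.92% of all genes), and 1 with PDX against sham (4.5% of all genes). *Nr1d1*, a repressor of the clock, had 37.9 to 54.8 CPM in sham, 24.9 to 33.6 with fracture and 27.2 to 42.6 with fracture plus PDX, with log2 fold changes of -0.67 (SE 0.082, adjusted p = 0.00449) and -0.41 (SE 0.094, adjusted p = 0.0293). *Dbp*, an output gene of the clock, had a log2 fold change of -0.53 with fracture (SE 0.081, adjusted p = 0.00859). The summed CPM of the clock list was 631 in sham female 2, the highest of the 18, and 549 in sham female 1, the lowest of sham. Over the 18 libraries the deviations of this sum had an r of 0.80 with those of *Zbtb16* and 0.75 with *Fkbp5*. The most abundant gene of the sum was *Tef* (median 135 CPM in sham), which had an r of 0.90 with *Zbtb16*. The clock genes did not vary as one. Their r with *Tsc22d3* ran from -0.66 for *Arntl* to 0.86 for *Per2*, with *Nr1d1* at -0.54. The part of sampling time in these differences was not tested. Of 10 immediate early genes, 1 was called with fracture (2.92% of all genes), *Btg2* (log2 fold change -0.54, SE 0.10, adjusted p = 0.0162), and 10 of 10 values were below 0. None was called with PDX against sham (4.5% of all genes), where they ran from -0.54 (SE 0.18) for *Fos* to -0.06 (SE 0.22) for *Egr2*.

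The injury genes of sensory neurons, by contrast, were higher in the same libraries, 6 of 10 being called with fracture (2.92% of all genes) and 7 of 10 with fracture plus PDX (4.5% of all genes). *Atf3* had 11.3 to 14.5 CPM in sham, 20.3 to 72.3 with fracture and 25.6 to 107 with fracture plus PDX. Within groups and sexes, the summed CPM of the injury list had an r of 0.03 with *Zbtb16* and -0.15 with *Tsc22d3*. Sham female 2 had the highest muscle (723 CPM) and placental (569 CPM) sums of the sham group, while sham female 3 had 130 CPM of muscle genes and the lowest placental sum of sham (180 CPM). The fibroblast sum had an r of 0.71 with *Zbtb16* and 0.55 with *Tsc22d3*, and the Schwann cell sum 0.56 and 0.61. Their part in the shared variation was not tested.

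Sex did not enter the choice of the list. Males were compared with females over the 18 libraries with group as a covariate, where 0 of 10 members and 0.297% of all genes were called. At an unadjusted p under 0.05, 5 of 10 members passed, *Mt1*, *Mt2*, *Errfi1* and *Sgk1* lower in males and *Nr3c1* higher, against 10.4% of all genes. Without sham females 2 and 3, 2 of the 9 members other than *Zbtb16* passed, where 1887 of 20798 genes did. Of the marker sets, those of macrophages were below 0 in males in 8 of 8 genes (median -0.11, 2 at an unadjusted p under 0.05), those of muscle in 8 of 8 (median -1.22) and those of adipocytes in 6 of 6 (median -0.51), and erythroid ones were above 0 in 7 of 7 (median 0.17). The macrophage sum had an r of 0.56 with *Mt1* within groups and sexes, and the part of these cells was not tested. *Mt1* had the lowest adjusted p (0.127), with 21.1, 26.6 and 38.0 CPM in males and 29.2, 35.9 and 57.2 CPM in females, so that 5 of 9 males lay below every female. Its log2 fold change was -0.51 (SE 0.13), -0.37 without sham females 2 and 3, and it was called with DESeq2 (adjusted p = 0.0261). *Errfi1* was 38.2, 42.0 and 60.1 CPM in males and 43.5, 46.7 and 69.9 CPM in females, and 6 of 9 males lay below every female (log2 fold change -0.18, SE 0.070, adjusted p = 0.340). *Mt2* differed by -0.51 (SE 0.20, adjusted p = 0.391), where 0 of 9 males lay below every female and fracture female 3 with sham females 2 and 3 held the 3 highest values. Its value lay between -0.59 and -0.23 in the alternative fits. The sign for *Zbtb16* depended on the 2 sham females (-0.16 with them and 0.23 without).

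Among the 30 further targets, 0 were called between the sexes in edgeR (0.297% of all genes), 8 had an unadjusted p under 0.05 (10.4% of all genes) and DESeq2 called 1, *Cebpd* (1.57% of all genes). The values ran from -0.78 (SE 0.36) for *Plin4* to 0.15 (SE 0.17) for *Cdkn1c*. Whether PDX acted differently in males and females was tested as an interaction over the 12 fracture libraries. Of the 9 members other than *Zbtb16*, 0 were called, against 0.00457% of all genes, which is 1 gene, *Xntrpc*, named after its values were seen. None had an unadjusted p under 0.05 (4.14% of all genes did). The largest interaction of the 9 was that of *Mt2* (0.71, SE 0.33), with 21.1 to 42.2 CPM in fracture and 13.7 to 20.1 in PDX females but 15.9 to 19.9 and 16.3 to 19.8 in males.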

How the data were processed

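Bulk RNA-seq counts of the 18 libraries were used. Per the labels and the study's methods, poly(A)-selected, stranded libraries were processed with cutadapt 1.10, FastQC, HISAT2 and StringTie on mm10, with other versions and the counting settings not given in the sources used here. The authors deposited raw read counts per gene for 36737 genes and FPKM values rounded to 2 decimals, both unpooled. Columns named as controls were read as the sham group, the only group left for them. Each mouse gave 1 library. The members and gene lists were chosen with earlier results of these data known.

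Counts were scaled by TMM, filtered by filterByExpr (minimum count 10, minimum total 15) and tested with edgeR 4.0.16 (R 4.3.3) by the robust quasi-likelihood test, with sex as a covariate, on the 12 libraries of 2 groups. Males were compared with females over all 18 libraries with group as a covariate. P-values were adjusted by Benjamini-Hochberg over all genes tested, and a gene was called under 0.05. SE is an approximate standard error, the size of the log2 fold change divided by the square root of the F statistic of its test. Every adjusted p is from edgeR unless another tool is named. Depth was 63235040 to 82824942 counts, and no member fell to 3 counts or fewer. The fits were also run on simulated counts, and that outcome is not reported here. Alternatives were DESeq2 1.42.0, upper-quartile scaling, other filters and covariates, all libraries in one fit (for the sexes, the fracture libraries alone), a replicate block, limma 3.58.1 on log2(FPKM + 1) and log2(FPKM + 0.1), and leaving out each library. Leaving out both sham females 2 and 3 was added after seeing the data. The expression of sex-linked genes matched the label in 18 of 18 libraries.

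All 10 members are named. Of each other list, genes called in a comparison are named, up to the 5 with the smallest p, or else those with the highest and lowest log2 fold change where they bear on a member. Likeness was ranked by Pearson correlation of log2 CPM (prior count 2) after subtracting the mean of group and sex. Further genes of the 30 targets were named after their values were seen. Promoter motifs were searched in RefSeq windows of GRCm38.p6. Gene coordinates are those of the deposited table (mm10). One gene of the receptor list is not reported here.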

Additional observations from a re-analysis of the deposited data

Results flagged for a closer look

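In groups of 6 mice, the highest and the lowest library were compared with the rest by Dixon's ratio, over 30 groups of the 10 members, and 2 passed its 95% critical value for groups of 6. Chance passes about 1 group in 20. *Zbtb16* was 6.89 CPM in PDX female 3, apart from the other 5 PDX mice, which lay between 3.61 and 4.72 CPM (ratio 0.661). These are values that led to the choice of the gene, so its ratio is a description. PDX female 3 was also the highest PDX mouse in the summed CPM of muscle markers (652, with 158 in the next) and of adipocyte markers (87.8, with 25.8 in the next). *Tsc22d3* was 215 CPM in fracture female 3, apart from the other 5 fracture mice, which lay between 145 and 170 CPM (ratio 0.645). The sham values of sham females 2 and 3 did not pass this ratio, since 2 high mice of 6 hide each other in it.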

How the results depend on the processing

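With DESeq2, with all 18 libraries in the fit (for the sexes, the 12 fracture libraries), with the replicate block and without sham females 2 and 3, the members called with fracture against sham were 2, 2, 0 and 0 in place of 1. With fracture plus PDX against sham they were 3 (DESeq2) and 2 (all libraries) in place of 0, between PDX and fracture 1 (DESeq2) in place of 0 (both DESeq2 counts include *Zbtb16*, whose values led to the list, so that these calls are no support), and between the sexes 1 (DESeq2, *Mt1*) and 1 (replicate block, *Sgk1*, -0.36, adjusted p = 0.0175) in place of 0. The further targets called were 6 (DESeq2) and 5 (all libraries) in place of 3 with fracture, 9 (DESeq2) in place of 4 with fracture plus PDX, and 1 (DESeq2) in place of 0 between the sexes. Over all genes DESeq2 called 1506, 1627, 10 and 323 in place of 603, 925, 0 and 61, and all libraries in one fit 814, 1087, 0 and 23. The cause of these differences was not tested. Leaving out one library gave 0 to 2 members with fracture (0 without fracture female 2, sham female 2, sham male 2 or sham male 3, and 2 without sham male 1), 0 to 3 with fracture plus PDX (1 without PDX male 2, 3 without sham male 1, which were *Nr3c1*, *Pdk4* and *Tsc22d3*), 0 to 1 between PDX and fracture (1 without PDX female 3, again *Zbtb16*) and 0 between the sexes. The further targets were 2 to 5, 2 to 8, 0 and 0 to 1, with the highest 2 counts without sham male 1.

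Mice of one sex and number did not pair across groups, since the deviations of 6 of 18 pairs correlated over 0.1 (-0.15 to 0.26). The 6 held all 3 male pairs of fracture with PDX (0.26, 0.15 and 0.19) but none of the 3 female pairs. With the replicate block, 118, 486, 0 and 19 of all genes were called with fracture, with PDX against sham, between PDX and fracture and between the sexes, in place of 603, 925, 0 and 61.

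Some values changed sign. Without sham females 2 and 3, fracture against sham was 0.068 for *Mt1* and 0.21 for *Mt2*, PDX against sham was -0.0057 for *Cdkn1a*, and males against females was 0.23 for *Zbtb16* and 0.021 for *Fkbp5*. In the 12 fracture libraries alone, males against females was 0.23 for *Zbtb16*, 0.0047 for *Fkbp5* and -0.043 for *Cdkn1a*. With FPKM, PDX against sham was -0.0092 (pseudocount 0.1) and -0.0088 (pseudocount 1) for *Cdkn1a*. Leaving out one library, fracture against sham ranged from -0.0060 to 0.17 for *Fkbp5*, -0.051 to 0.016 for *Cdkn1a* and -0.30 to 0.00082 for *Mt2*. PDX against sham ranged from -0.024 to 0.051 for *Cdkn1a*. PDX against fracture ranged from -0.13 to 0.043 for *Sgk1*, -0.046 to 0.023 for *Nr3c1*, -0.0056 to 0.074 for *Cdkn1a* and -0.022 to 0.048 for *Errfi1*. Males against females ranged from -0.012 to 0.045 for *Cdkn1a*. Of the other tested values of single members, 813 kept their direction and their side of the threshold. *Zbtb16*, whose values between groups led to the list and are a description, kept its sign against fracture and against sham with PDX under all alternatives, but ranged from -0.36 to 0.44 with fracture against sham. The members held 268 counts or more in every library, and each group had 6 mice.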
